A study of Homo sapiens with 12 samples.

Results

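The E2F and DP transcription factor genes, E2F1 to E2F8 with TFDP1 and TFDP2, were examined upon knockdown of the RNA-binding protein IGF2BP1. The 10 members were taken by gene symbol from both deposited tables, of 58174 genes listed. All 10 passed the filter on low values in both tables, namely 0.1 FPKM (reads scaled by gene length and sequencing depth) or more in 3 or more libraries, among 19436 genes tested in Hep-G2 and 18656 in BE(2)-C. Hep-G2 is a hepatoblastoma line and BE(2)-C a neuroblastoma line. Cells were transfected with a control siRNA (siC), whose sequence derives from a C. elegans microRNA, or with a pool of siRNAs specific for IGF2BP1 among its paralogs (siI1), and poly-A RNA was taken after 72 h. There were 3 libraries per siRNA and line, 12 in all, which the methods call biological replicates. The siRNA dose was higher in BE(2)-C, so that dose and cell line cannot be told apart. E2F1 and E2F2 had been picked by the study as downregulated partly on these libraries, and their direction is therefore not independent evidence.

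E2F proteins bind DNA and regulate genes of DNA replication and cell division, and most of them do so as dimers with a DP protein. E2F1, E2F2 and E2F3 are known as activators that the retinoblastoma protein RB1 holds in check, while E2F4 and E2F5 repress together with the RB1 relatives RBL1 and RBL2 in resting cells. E2F6 represses through Polycomb complexes without pocket proteins, and E2F7 and E2F8 are atypical repressors that bind DNA without a DP partner.

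IGF2BP1, the siRNA target, had an FPKM of 48.5, 46.6 and 50.8 in the siC libraries of Hep-G2 and 12.6, 10.7 and 10.7 in the siI1 libraries. Its level in BE(2)-C was 21.3, 20.6 and 21.6 FPKM in siC and 4.85, 4.75 and 4.87 in siI1. Every siI1 library lay below every siC library of its line, as the labels state, at a mean of 23.3% (Hep-G2) and 22.8% (BE(2)-C) of siC. The log2 fold changes of IGF2BP1 differed by -0.02 between the lines (BE(2)-C minus Hep-G2, 95% interval -0.22 to 0.19, limma adjusted p = 0.914). Hepatic markers summed to 7563 to 7633 FPKM in the siC libraries of Hep-G2, led by ALB, and to at most 0.237 in any BE(2)-C library, where 3 of the 8 were listed at 0 throughout. Neuroblastoma markers summed to 1799 to 2003 FPKM in the siC libraries of BE(2)-C, led by CHGA, and to at most 0.241 in Hep-G2, where 4 of the 8 were listed at 0 throughout. Each table thus carried the markers of its labelled line.

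Between 12852988 and 15721210 reads per library fell on genes. The siI1 replicate 1 library of Hep-G2 stood apart. Over 11247 genes, its log2 values differed from the mean of the other 2 siI1 libraries by a median of 0.19, against 0.07 to 0.12 for the other 5 libraries of that line. Without it, the same 5 members were lower and the same 1 was higher in Hep-G2, and the number that differed between the lines went from 3 to 4. The calls among all genes rose as well without it, from 8713 of 19436 to 9428 of 18694 in Hep-G2 and from 6180 of 15362 to 7033 of 15083 for the difference. In BE(2)-C, siC replicate 1 deviated most from its group, by a median of 0.13 over 10961 genes. The other 5 libraries of that line had 0.07 to 0.10. Leaving out siC replicate 1 of BE(2)-C added E2F7 to the members lower there, which were then 4.

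**Figure D1:**
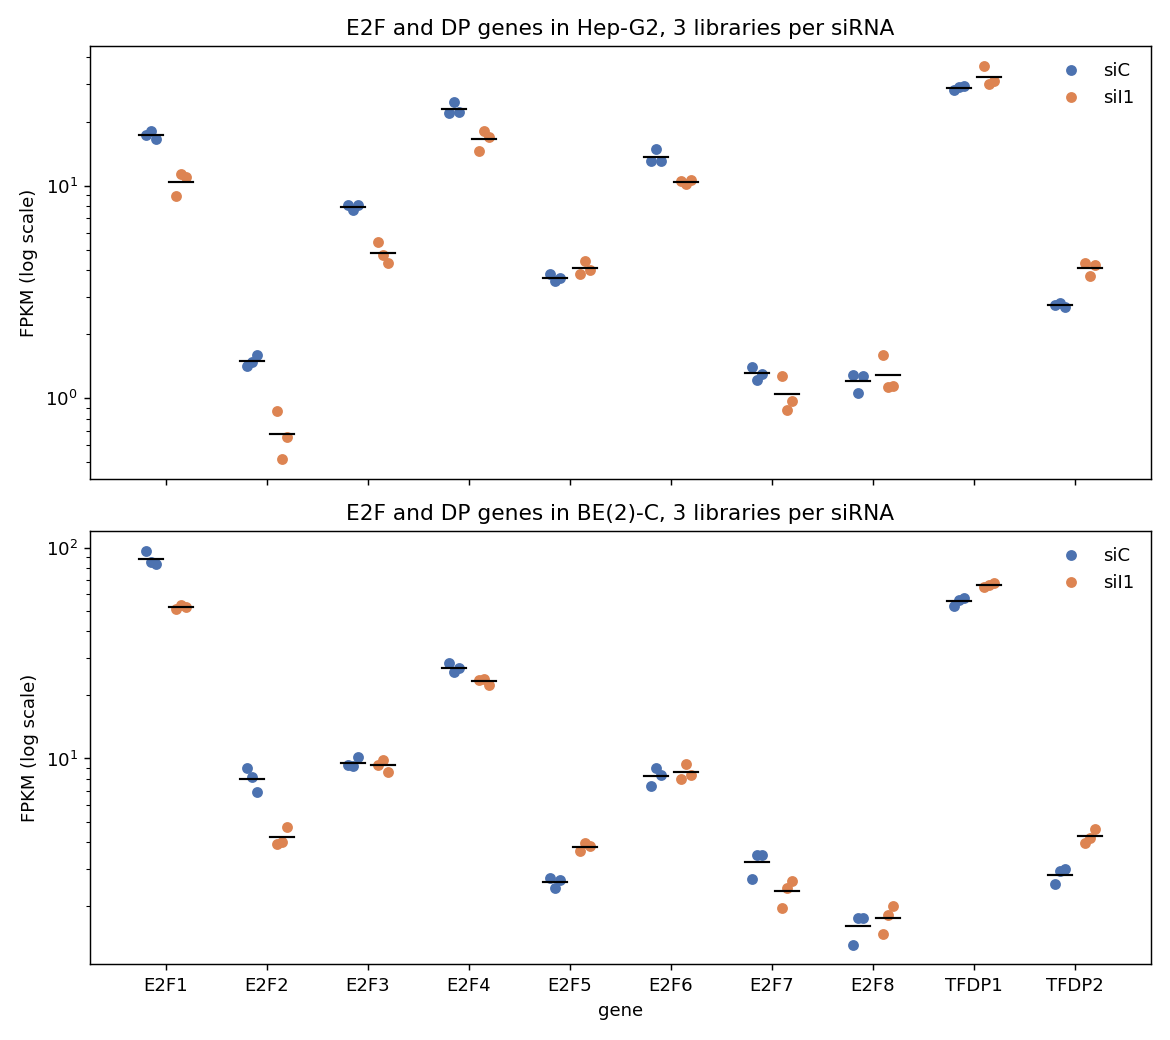
FPKM (log axis) of the 10 E2F and DP genes in each library of Hep-G2 (top) and BE(2)-C (bottom), with siC in blue and siI1 in orange; points are libraries and bars are means of 3. E2F1 lay between 8.92 and 11.3 in siI1 and between 16.6 and 18.1 in siC of Hep-G2, and TFDP2 lay higher in all siI1 than in all siC libraries of both lines.

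Upon knockdown in Hep-G2, 5 of the 10 members were lower (limma, adjusted p below 0.05), namely E2F1, E2F2, E2F3, E2F4 and E2F6, against 23.0% of all tested genes. A single member, TFDP2, was higher, against 21.9% of all tested genes. BE(2)-C had 3 of 10 members lower (E2F1, E2F2 and E2F4), against 14.8% of its tested genes, and 3 of 10 higher (E2F5, TFDP1 and TFDP2), against 13.3%. E2F1, E2F2 and E2F4 were thus lower in both lines, against 6.6% of all genes tested in both, and TFDP2 higher, against 4.34%, also with either other scaling of the libraries, whereas the values of E2F5 and E2F8 in Hep-G2 changed sign with equal sums of FPKM. The percentages of all tested genes, here and below, include genes of low level, among which calls were rarer. With the filter at 1 FPKM, 7925 of 13055 tested genes were called in either direction in Hep-G2, against 8713 of 19436. For BE(2)-C these were 5110 of 12337, against 5252 of 18656. The median over all tested genes was a log2 fold change of 0.01 in the Hep-G2 table and of 0.02 in that of BE(2)-C. Scaling the Hep-G2 libraries to equal sums moved the median of all genes by -0.16 and lowered the share of higher genes among all calls from 48.8% to 35.4%, whereas median centring moved it by 0.09 and raised that share to 57.6%. An exact permutation test of 3 against 3 libraries cannot go below 0.1, so that single calls rest on the model across genes. As the RNA is from bulk cultures, fewer cells with a transcript and less of it per cell cannot be told apart.

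**Figure D2:**
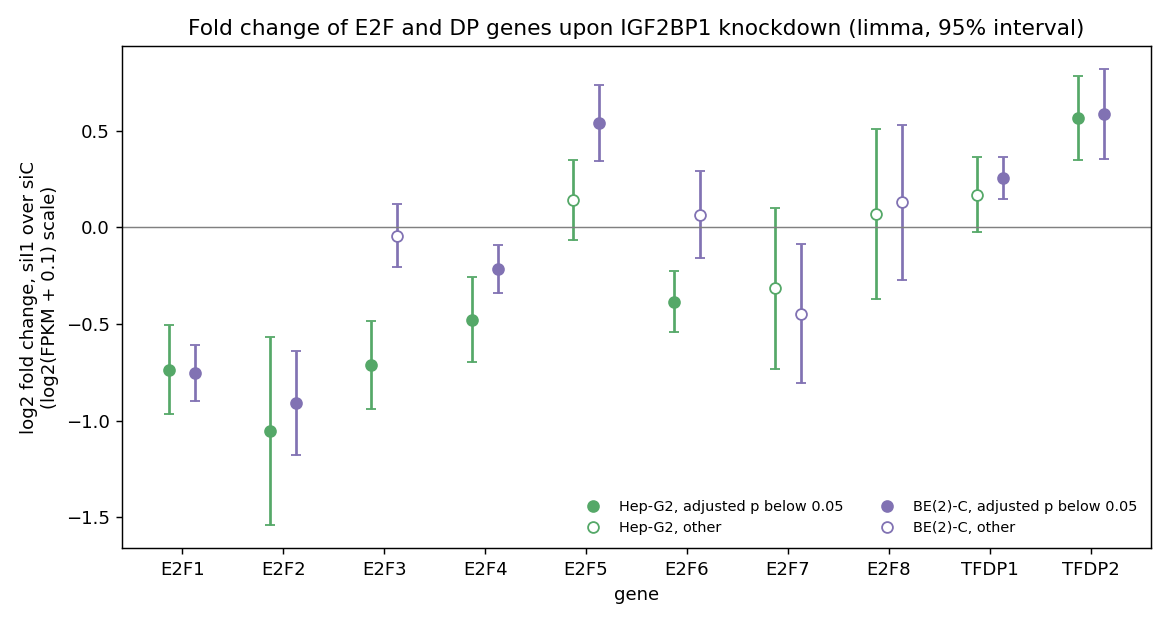
Log2 fold change, siI1 over siC, of the 10 genes in Hep-G2 (green) and BE(2)-C (violet), with 95% limma intervals of 3 against 3 libraries; filled points passed an adjusted p of 0.05. E2F1 and E2F2 lay below 0 and TFDP2 above 0 in both lines, whereas E2F3 was at -0.71 in Hep-G2 and at -0.04 in BE(2)-C.

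The promoters of the activators E2F1, E2F2 and E2F3 are shown as those of 3 of the 5 members that fell in Hep-G2, and that of TFDP1 is added as the DP gene with a longer match. The sequences are those of RefSeq (GRCh38.p14), 250 bases before to 50 bases after a start site, on the strand of the gene, with capitals marking TTCGCG or TTGGCG or TTCCCG or TTGCCG, which are short forms of the E2F site, on either strand. They lie at chr20:33686336-33686635 for E2F1 (minus strand), chr1:23531184-23531483 for E2F2 (minus strand), chr6:20401629-20401928 for E2F3 (plus strand, the upstream of 2 start sites) and chr13:113584503-113584802 for TFDP1 (plus strand).
E2F1: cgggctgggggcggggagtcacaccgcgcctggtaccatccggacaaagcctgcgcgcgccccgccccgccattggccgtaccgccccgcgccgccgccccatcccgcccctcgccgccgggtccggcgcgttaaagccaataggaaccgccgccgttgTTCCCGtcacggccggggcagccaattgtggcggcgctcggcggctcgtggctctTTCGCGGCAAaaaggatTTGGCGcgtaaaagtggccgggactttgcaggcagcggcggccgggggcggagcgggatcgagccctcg
E2F2: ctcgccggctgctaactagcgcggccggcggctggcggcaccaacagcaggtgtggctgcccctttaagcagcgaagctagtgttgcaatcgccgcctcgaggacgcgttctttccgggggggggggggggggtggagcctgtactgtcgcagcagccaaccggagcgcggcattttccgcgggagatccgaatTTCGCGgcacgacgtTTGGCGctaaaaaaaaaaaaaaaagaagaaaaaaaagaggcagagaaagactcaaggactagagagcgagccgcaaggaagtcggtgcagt
E2F3: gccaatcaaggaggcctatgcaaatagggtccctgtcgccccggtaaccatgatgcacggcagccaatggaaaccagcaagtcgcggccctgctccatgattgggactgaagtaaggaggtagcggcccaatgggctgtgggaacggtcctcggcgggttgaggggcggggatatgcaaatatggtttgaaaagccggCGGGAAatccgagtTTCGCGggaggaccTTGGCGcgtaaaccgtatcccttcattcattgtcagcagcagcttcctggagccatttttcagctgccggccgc
TFDP1: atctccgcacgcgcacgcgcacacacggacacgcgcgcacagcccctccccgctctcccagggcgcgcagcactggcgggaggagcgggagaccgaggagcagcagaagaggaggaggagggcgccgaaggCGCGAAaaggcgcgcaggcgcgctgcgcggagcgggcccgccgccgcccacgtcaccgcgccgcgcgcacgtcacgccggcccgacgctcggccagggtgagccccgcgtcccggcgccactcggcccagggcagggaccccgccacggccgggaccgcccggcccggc

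E2F1, E2F2 and E2F3 each held TTCGCG followed by TTGGCG on the strand of the gene. TTCGCG began at base -36 from the start site of E2F1, -56 from that of E2F2 and -38 from that of E2F3, and TTGGCG at -19, -41 and -24. Of all 35116 promoter windows of this length, 0.934% held both strings on any strand, and of the 11 windows of the 8 members with an entry these 3 did. The longer forms TTTCCCGC, TTTCGCGC, TTTGCCGC and TTTGGCGC, each of which contains a shorter one, were found in 4 of these 11 windows (1 each of E2F1, E2F2, E2F3 and TFDP1), against 3.31% of all windows. The shorter strings were in 8 of the 11, against 31.1% of all windows. E2F4 and E2F6 also fell in Hep-G2, and the window of E2F4 held 0 of the shorter strings and that of E2F6 held 3 matches. A match describes letters, and binding was not measured.

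E2F1, the activator best known for its control by RB1, lies at chr20:33675477-33686385 on the minus strand (GENCODE 44 on hg38). Its FPKM in Hep-G2 was 17.2, 18.1 and 16.6 in siC and 8.92, 11.3 and 11.0 in siI1. For BE(2)-C the values were 96.4, 85.0 and 83.5 in siC and 51.0, 53.5 and 52.3 in siI1. The groups did not overlap in either line, and the lowest Hep-G2 library was siI1 replicate 1. The log2 fold change was -0.74 ± 0.10 (SE; limma adjusted p = 0.00102) in Hep-G2 and -0.75 ± 0.06 (limma adjusted p = 0.000393) in BE(2)-C, means of 60.1% and 59.2% of siC. E2F1 had 302 to 668 reads per library in Hep-G2 and 1817 to 3463 in BE(2)-C. The tables were normalized apart, so that levels of both lines are set side by side without a test.

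E2F2, also an activator, spans chr1:23506438-23531233 on the minus strand. Low levels marked it in Hep-G2, where its FPKM was 1.42, 1.48 and 1.59 in siC and 0.867, 0.516 and 0.658 in siI1. Higher levels were listed for BE(2)-C, 8.97, 8.16 and 6.97 in siC and 3.95, 4.02 and 4.71 in siI1. Again no siI1 library reached the level of a siC library. The log2 fold change was -1.05 ± 0.20 (limma adjusted p = 0.00564) in Hep-G2, from 41 to 128 reads per library, and -0.91 ± 0.11 (limma adjusted p = 0.00174) in BE(2)-C, from 310 to 703 reads. The size of the change in Hep-G2 depended on the pseudocount of 0.1, as adding 1 gave -0.58 with the call kept.

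E2F3, the remaining activator, covers chr6:20401879-20493714 on the plus strand. Hep-G2 libraries had 8.07, 7.64 and 8.10 FPKM in siC and 5.44, 4.72 and 4.32 in siI1. Those of BE(2)-C had 9.29, 9.23 and 10.1 in siC and 9.27, 9.85 and 8.67 in siI1. The groups were apart in Hep-G2 and overlapped in BE(2)-C. E2F3 fell in Hep-G2 (log2 fold change -0.71 ± 0.10, limma adjusted p = 0.00110), whereas the log2 fold change in BE(2)-C was -0.04 with a 95% interval of -0.20 to 0.12 (limma adjusted p = 0.683). The difference between the lines, BE(2)-C minus Hep-G2, was 0.67 ± 0.12 (limma adjusted p = 0.00104).

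The activators together summed to 26.7, 27.2 and 26.3 FPKM in siC and 15.2, 16.5 and 15.9 in siI1 of Hep-G2. Their share of the summed FPKM of all 8 E2F genes was 37.6% to 39.1% in siC and 32.2% to 32.5% in siI1. The same share in BE(2)-C was 70.0% to 73.0% in siC and 61.9% to 62.6% in siI1, with E2F1 alone at 58.1% to 61.3% and 49.2% to 49.9%. The siI1 shares lay below the siC shares in both lines, as a description without a test.

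**Figure D3:**
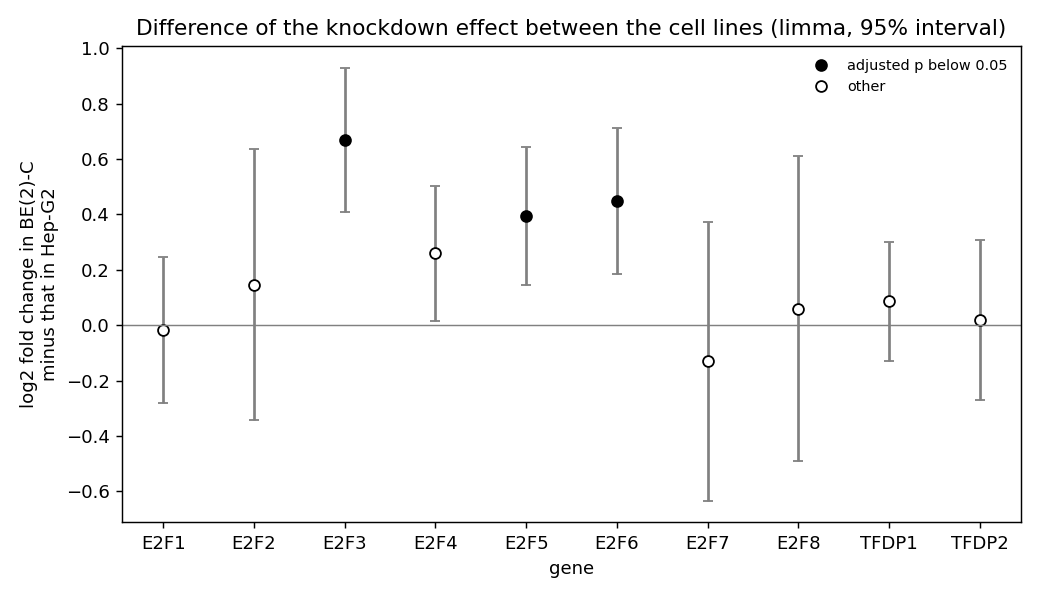
Difference of the log2 fold changes (BE(2)-C minus Hep-G2) of each gene, from a joint limma fit of 12 libraries with 95% intervals; filled points passed an adjusted p of 0.05. E2F3, E2F5 and E2F6 lay above 0, at 0.67, 0.40 and 0.45.

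The test of a difference between the lines was passed by 3 of the 10 members (E2F3, E2F5 and E2F6), against 40.2% of the 15362 genes tested in both, so that the share among the members was not above that of all genes. E2F1 had a difference of -0.02 (95% interval -0.28 to 0.25, limma adjusted p = 0.928) and E2F2 one of 0.15 (-0.34 to 0.64, limma adjusted p = 0.639). E2F4 had a difference of 0.26 (0.02 to 0.50, limma adjusted p = 0.0838). It passed with equal sums of FPKM (0.45, limma adjusted p = 0.00115, range over the settings 0.00115 to 0.165), with replicate numbers as a block (0.26, limma adjusted p = 0.0372) and without siI1 replicate 2 of Hep-G2 (0.33, limma adjusted p = 0.0360). TFDP1 passed without siI1 replicate 1 of Hep-G2 (0.17, limma adjusted p = 0.0423), against 0.09 with all libraries (adjusted p = 0.518, limma).

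E2F4, the most abundant E2F repressor gene, spans chr16:67192155-67198918 on the plus strand. Its FPKM in Hep-G2 was 21.9, 24.6 and 22.2 in siC and 14.5, 18 and 16.9 in siI1. Values in BE(2)-C were 28.4, 25.6 and 26.9 in siC and 23.4, 23.7 and 22.4 in siI1. All siI1 libraries were below all siC libraries in both lines, with siI1 replicate 1 the lowest in Hep-G2. E2F4 fell by 0.48 ± 0.09 on the log2 scale in Hep-G2 (limma adjusted p = 0.00554) and by 0.22 ± 0.05 in BE(2)-C (limma adjusted p = 0.0217). The call in BE(2)-C was lost without the mean-variance trend (limma adjusted p = 0.0774, range over the settings 0.00765 to 0.0774). It was also lost without siC replicate 3 (0.0541) and without siI1 replicate 1, 2 or 3 (0.0544, 0.0533 and 0.0818, limma adjusted p), with the direction kept.

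E2F5, the other partner of the RB1 relatives, maps to chromosome 8. Hep-G2 had 3.85, 3.55 and 3.66 FPKM in siC and 3.85, 4.40 and 4.0 in siI1. Its BE(2)-C values were 2.71, 2.43 and 2.64 in siC and 3.65, 3.96 and 3.84 in siI1. The siI1 libraries were well above siC in BE(2)-C, and in Hep-G2 the groups nearly touched. The rise passed the test in BE(2)-C (log2 fold change 0.54 ± 0.08, limma adjusted p = 0.00403). In Hep-G2 the log2 fold change was 0.14 (95% interval -0.06 to 0.35, limma adjusted p = 0.225) and turned to -0.02 with equal sums of FPKM. The difference between the lines was 0.40 ± 0.11 (limma adjusted p = 0.0165).

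Exons of E2F5 overlap those of RBIS on the other strand by 997 bases. The libraries were strand-specific, but the strand setting of the counting was not given. Whether reads there were assigned by strand, mixed or left out is therefore not known. RBIS, listed as C8orf59, had 11.1, 13.2 and 11.9 FPKM in siC and 12.3, 10.9 and 10.5 in siI1 of BE(2)-C, groups that overlapped. Its log2 fold change there was -0.10 (limma adjusted p = 0.440), and in Hep-G2 it was 0.20 (limma adjusted p = 0.0659). The part of RBIS reads in the level of E2F5 was not tested.

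E2F6, the Polycomb-linked repressor, covers chr2:11444375-11466177 on the minus strand. Levels in Hep-G2 were 13.1, 14.8 and 13.1 FPKM in siC and 10.5, 10.2 and 10.6 in siI1. Levels in BE(2)-C were 7.37, 8.98 and 8.34 in siC and 8.03, 9.46 and 8.30 in siI1. The groups were apart in Hep-G2 and overlapped in BE(2)-C. E2F6 fell by 0.38 ± 0.07 on the log2 scale in Hep-G2 (limma adjusted p = 0.00353), and the log2 fold change in BE(2)-C was 0.06 (95% interval -0.16 to 0.29, limma adjusted p = 0.659). The difference between the lines was 0.45 ± 0.12 (limma adjusted p = 0.0117).

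E2F6 has pseudogene copies that could share its reads, so that its level is uncertain to that extent. The copy E2F6P1 had 3.89, 3.05 and 2.37 FPKM in siC and 2.08, 1.75 and 0.904 in siI1 of Hep-G2, from 9 to 45 reads per library. Its levels in BE(2)-C were 4.02, 2.83 and 3.26 in siC and 1.91, 1.52 and 1.45 in siI1, from 15 to 43 reads. The groups did not overlap in either line. E2F6P1 was lower in Hep-G2 (log2 fold change -0.98 ± 0.32, limma adjusted p = 0.0428) and in BE(2)-C (-1.0 ± 0.16, limma adjusted p = 0.00478). The Hep-G2 call was lost without a filter, without the trend and with median centring (limma adjusted p = 0.0752, 0.0723 and 0.0608), within a range of 0.00534 to 0.0752 over the settings. It was also lost without siC replicate 1 or 2 (0.126 and 0.0929) or siI1 replicate 2 or 3 (0.0636 and 0.0669, limma adjusted p).

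Other relatives of the members had few reads. E2F6P2 had 0.861, 0.294 and 0.816 FPKM in siC and 1.48, 0.184 and 0.700 in siI1 of Hep-G2, groups that overlapped, from 2 to 15 reads per library. In BE(2)-C its log2 fold change was -1.23 ± 0.29 (limma adjusted p = 0.0199) from 1 to 5 reads per library. E2F6P3 had at most 6 reads, E2F3P2 at most 4 and TFDP3, a DP relative, at most 1. E2F3P1, E2F4P1 and E2F6P4 were listed at 0 in all 12 libraries.

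E2F7, an atypical repressor, lies at chr12:77021248-77065569 on the minus strand. Its FPKM in Hep-G2 was 1.40, 1.22 and 1.30 in siC and 1.27, 0.882 and 0.973 in siI1. That in BE(2)-C was 2.70, 3.49 and 3.51 in siC and 1.96, 2.44 and 2.64 in siI1. The groups overlapped in Hep-G2 and were just apart in BE(2)-C, between siC replicate 1 and siI1 replicate 3. The log2 fold change was -0.32 (95% interval -0.73 to 0.10, limma adjusted p = 0.189) in Hep-G2, from 81 to 137 reads per library. In BE(2)-C it was -0.45 (-0.80 to -0.09, limma adjusted p = 0.0681), from 191 to 309 reads. E2F7 passed the threshold in BE(2)-C when genes were filtered at 1 FPKM (limma adjusted p = 0.0435), with voom weights (0.00259), with replicate numbers as a block (0.0250) and without siC replicate 1 (-0.57, adjusted p = 0.0358). The adjusted p ranged from 0.00259 to 0.108 over the settings and from 0.0358 to 0.167 over single libraries left out (limma).

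E2F8, the other atypical repressor, lies at chr11:19224063-19241620 on the minus strand and was among the lowest of the family. Hep-G2 libraries had 1.29, 1.06 and 1.28 FPKM in siC and 1.59, 1.13 and 1.138 in siI1. BE(2)-C libraries had 1.31, 1.75 and 1.75 in siC and 1.47, 1.81 and 2.0 in siI1. The groups overlapped in both lines. The log2 fold change was 0.07 (95% interval -0.37 to 0.51, limma adjusted p = 0.791) in Hep-G2, turning to -0.09 with equal sums of FPKM, and 0.13 (-0.27 to 0.53, limma adjusted p = 0.619) in BE(2)-C. E2F8 had 60 to 89 reads per library in Hep-G2 and 78 to 115 in BE(2)-C.

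TFDP1, which encodes a dimer partner of E2F proteins, spans chr13:113584721-113641473 on the plus strand. Levels in Hep-G2 were 28.0, 29.1 and 29.4 FPKM in siC and 36.6, 30.1 and 30.9 in siI1. Levels in BE(2)-C were 53.0, 56.3 and 57.7 in siC and 64.7, 66.4 and 68.1 in siI1. The siI1 libraries were above the siC libraries in both lines, and in Hep-G2 siI1 replicate 1 lay far above the other 2. TFDP1 rose in BE(2)-C (log2 fold change 0.25 ± 0.05, limma adjusted p = 0.00781). In Hep-G2 the log2 fold change was 0.17 (95% interval -0.02 to 0.36, limma adjusted p = 0.135). It passed with median centring (0.26, limma adjusted p = 0.0349), while equal sums of FPKM gave 0.00 (limma adjusted p = 0.989), the ends of the range over the settings. Without siI1 replicate 1 it was 0.08 (adjusted p = 0.150, limma).

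TFDP2, the second DP gene, covers chr3:141944428-142149544 on the minus strand. Hep-G2 had 2.74, 2.79 and 2.69 FPKM in siC and 4.34, 3.75 and 4.24 in siI1. The BE(2)-C libraries had 2.54, 2.92 and 2.98 in siC and 3.98, 4.18 and 4.64 in siI1. Every siI1 library exceeded every siC library of its line. The log2 fold change was 0.57 ± 0.09 (limma adjusted p = 0.00264) in Hep-G2 and 0.58 ± 0.10 (limma adjusted p = 0.00568) in BE(2)-C, means of 150.0% and 152% of siC. The difference between the lines was 0.02 (95% interval -0.27 to 0.31, limma adjusted p = 0.924).

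**Figure D4:**
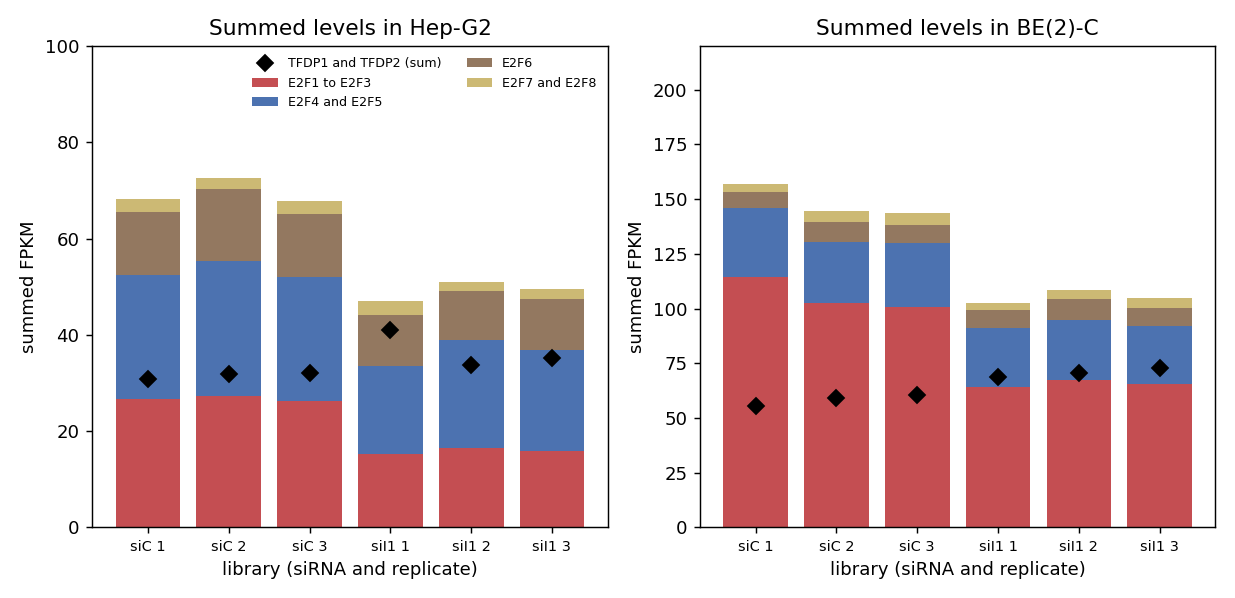
Summed FPKM of the E2F genes by class (stacked bars) and of TFDP1 with TFDP2 (black diamonds) in each library, with separate axes for Hep-G2 and BE(2)-C. The E2F sum ran from 67.7 to 72.5 in siC and from 46.9 to 51.1 in siI1 of Hep-G2, while the DP sum was 30.8 to 32.1 and 33.8 to 41.0.

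The ratio of the DP sum to the E2F sum does not depend on the scaling of the libraries. The FPKM of both DP genes per FPKM of all E2F genes was 0.451, 0.440 and 0.473 in siC and 0.873, 0.662 and 0.710 in siI1 of Hep-G2. This ratio in BE(2)-C was 0.354, 0.409 and 0.423 in siC and 0.669, 0.650 and 0.694 in siI1. All siI1 ratios lay above all siC ratios of their line, the highest being Hep-G2 siI1 replicate 1, and no test was made of a sum over members. TFDP2 made up 8.39% to 8.91% of the DP sum in siC and 10.6% to 12.1% in siI1 of Hep-G2, against 4.57% to 4.93% and 5.80% to 6.38% in BE(2)-C.

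The order of levels differed between the tables. By mean FPKM in siC of Hep-G2, TFDP1 (28.8 ± 0.728, SD, n = 3) came before E2F4 (22.9 ± 1.48), E2F1 (17.3 ± 0.774), E2F6 (13.6 ± 0.991), E2F3 (7.94 ± 0.255), E2F5 (3.69 ± 0.149), TFDP2 (2.74 ± 0.0519), E2F2 (1.495 ± 0.0882), E2F7 (1.31 ± 0.0890) and E2F8 (1.21 ± 0.128). Of neighbours in that order, E2F7 and E2F8 alone had libraries that overlapped. In siC of BE(2)-C, E2F1 came first (88.3 ± 7.06), before TFDP1 (55.7 ± 2.41), E2F4 (27.0 ± 1.40), E2F3 (9.54 ± 0.490), E2F6 (8.22 ± 0.811), E2F2 (8.04 ± 1.01), E2F7 (3.23 ± 0.463), TFDP2 (2.81 ± 0.238), E2F5 (2.60 ± 0.145) and E2F8 (1.603 ± 0.252). There, E2F6 and E2F2, E2F7 and TFDP2, and TFDP2 and E2F5 overlapped. Upon knockdown of BE(2)-C, TFDP1 (66.4 ± 1.71) came before E2F1 (52.2 ± 1.24) with no overlap. In siI1 of Hep-G2, E2F6 (10.4 ± 0.224) and E2F1 (10.4 ± 1.28) overlapped, and E2F2 (0.680 ± 0.177) came last.

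Genes known to be activated by E2F proteins for entry into S phase were more often lower than higher. Of 40 listed G1/S targets, 21 were lower and 4 higher in Hep-G2 (median log2 fold change -0.27), against the 23.0% and 21.9% of all tested genes. For BE(2)-C the counts were 25 lower and 1 higher (median -0.28), against 14.8% and 13.3%. RRM2, a subunit of ribonucleotide reductase, had 27.4, 27.7 and 27.2 FPKM in siC and 12.7, 12.4 and 12.3 in siI1 of Hep-G2, with no overlap. Its log2 fold change was -1.14 ± 0.05 (limma adjusted p = 9.32e-06) in Hep-G2 and -0.62 ± 0.05 (limma adjusted p = 0.000318) in BE(2)-C. UHRF1 (-1.09 ± 0.08), a cofactor of DNA methylation, and CDC6 (-0.90 ± 0.08), a replication licensing factor, were next in Hep-G2 by p. TK1, thymidine kinase (-0.83 ± 0.05), and GINS2, a subunit of the replicative helicase (-1.04 ± 0.08), were among the first in BE(2)-C. TYMS, thymidylate synthase, rose in Hep-G2 (0.44 ± 0.06, limma adjusted p = 0.000949), as did PRIM1 (0.40 ± 0.12) and the replication clamp PCNA (0.24 ± 0.07), whereas TYMS (-0.43 ± 0.05) and PCNA (-0.20 ± 0.06) fell in BE(2)-C. The count of 4 higher in Hep-G2 went to 1 with equal sums, without the trend and without siC replicate 1 or 3, to 2 without a filter and without siI1 replicate 2 or 3, and to 6 with median centring. BRCA1 was the single gene higher in BE(2)-C (0.37 ± 0.11, limma adjusted p = 0.0473). That count went to 0 with equal sums, without a filter, without the trend and without siC replicate 3 or siI1 replicate 2 or 3, and to 2 with median centring and voom weights. Of the list, 16 genes were lower in both lines, that is 16 of 21 and 16 of 25, and 16 of 40 listed against 6.6% of all genes tested in both. This list and those below were chosen with earlier results of these data known, so that their shares are not independent evidence.

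**Figure D5:**
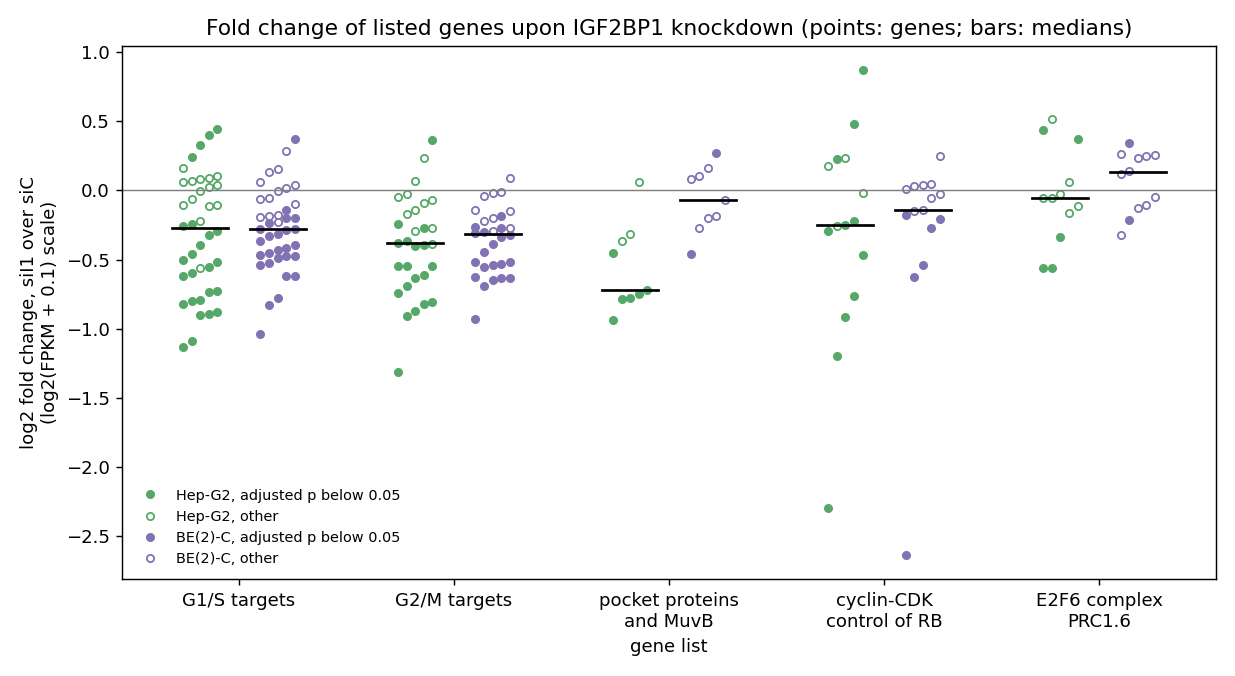
Log2 fold change, siI1 over siC, of each tested gene in 5 lists around the family in Hep-G2 (green) and BE(2)-C (violet), with medians as bars; filled points passed an adjusted p of 0.05 (limma). The median of the pocket protein and MuvB list was -0.72 for Hep-G2 and -0.07 for BE(2)-C, while those of the G1/S targets were -0.27 and -0.28.

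Of 30 listed G2/M targets, later genes that E2F and MuvB complexes control, 18 were lower and 1 higher in Hep-G2 (median -0.38), against 23.0% and 21.9% of all tested genes. BE(2)-C had 20 lower and 0 higher by limma (median -0.32), against 14.8% and 13.3%, also 0 higher at an unadjusted p below 0.05 and with voom weights. AURKA, a mitotic kinase (-0.91 ± 0.05, limma adjusted p = 2.90e-05), CDK1 (-0.74 ± 0.06) and the kinesin KIF11 (-0.87 ± 0.10) were first by p in Hep-G2. MYBL2, a MuvB partner and itself an E2F target, had 26.7, 26.1 and 27.4 FPKM in siC and 30.4, 37.1 and 36.1 in siI1 of Hep-G2, but 213, 191 and 190.1 in siC and 106, 100.5 and 103 in siI1 of BE(2)-C. It rose in Hep-G2 (0.36 ± 0.08, limma adjusted p = 0.0106) and fell in BE(2)-C (-0.93 ± 0.06, limma adjusted p = 0.000169), a difference of -1.30 ± 0.10 (limma adjusted p = 3.91e-06). BIRC5, survivin (-0.64 ± 0.04), and AURKB (-0.69 ± 0.05) were next in BE(2)-C by p. Of the list, 12 genes were lower in both lines, that is 12 of 18 and 12 of 20, and 12 of 30 listed against 6.6% of all genes tested in both. AURKA, CDK1, PLK1 and MKI67 are among these. The study had picked them as downregulated partly on these libraries, and their direction is therefore not independent evidence.

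A list of 9 genes held pocket proteins and MuvB subunits, with which repressive E2F proteins act, and DYRK1A, a kinase that acts on MuvB. In Hep-G2, 6 of 9 were lower and 0 higher by limma (median -0.72, the value of DYRK1A), against 23.0% and 21.9% of all tested genes, with 0 higher also at an unadjusted p below 0.05 and with voom weights. BE(2)-C had 1 lower and 1 higher (median -0.07), against 14.8% and 13.3%. The test of a difference between the lines was passed by 6 of 9, against 40.2% of all genes tested in both, each with the higher value in BE(2)-C. RBL2 had 11.1, 9.05 and 10.9 FPKM in siC and 7.76, 4.91 and 5.54 in siI1 of Hep-G2, with no overlap. Its log2 fold change was -0.79 ± 0.17 (limma adjusted p = 0.01) in Hep-G2 and -0.20 ± 0.08 (limma adjusted p = 0.103) in BE(2)-C, a difference of 0.58 (limma adjusted p = 0.0394). DYRK1A fell in Hep-G2 (-0.72 ± 0.15, limma adjusted p = 0.00698). RBL1 fell in Hep-G2 (-0.75 ± 0.16, limma adjusted p = 0.00778), and its difference between the lines was 0.57 (limma adjusted p = 0.0517). RB1 itself rose in BE(2)-C (0.27 ± 0.07, limma adjusted p = 0.0322), with -0.37 ± 0.15 in Hep-G2 (limma adjusted p = 0.0850) and a difference of 0.64 (limma adjusted p = 0.0141). LIN52, a MuvB subunit, fell in both lines (-0.93 ± 0.09 and -0.46 ± 0.11). In BE(2)-C the count of higher genes, that is RB1, went from 1 to 0 without the trend and without siC replicate 1 or 3 or any of siI1 replicates 1, 2 and 3. The count of lower genes, that is LIN52, went from 1 to 0 without siC replicate 1 or 3 or siI1 replicate 1 or 2.

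Of 16 genes of the cyclin-CDK control of RB1, 15 were tested in each line. Hep-G2 had 8 lower and 3 higher (median -0.25), against 23.0% and 21.9% of all tested genes, which became 5 and 5 with median centring and 9 and 2 with equal sums. BE(2)-C had 6 lower and 0 higher by limma (median -0.14), against 14.8% and 13.3%, with 0 higher also at an unadjusted p below 0.05 and with voom weights. The 8 lower in Hep-G2 became 5 also without the trend and without siC replicate 1 or 3 or siI1 replicate 2. The 3 higher there became 5 also with the filter at 1 FPKM and without siI1 replicate 1. For BE(2)-C, the 6 lower became 3 without the trend and without siI1 replicate 2 or 3. CDKN2B, a CDK4/6 inhibitor, had 11.1, 11.4 and 11.3 FPKM in siC and 2.37, 2.20 and 2.08 in siI1 of Hep-G2, with no overlap (log2 fold change -2.30 ± 0.08, limma adjusted p = 4.83e-06). CDKN1A, the p21 inhibitor, had 5.98, 6.09 and 5.53 FPKM in siC and 0.997, 0.812 and 0.779 in siI1 of BE(2)-C, again with no overlap (-2.64 ± 0.12, limma adjusted p = 8.57e-05). In Hep-G2, CCND2 (-1.20 ± 0.12) and CDK6 (-0.91 ± 0.16) fell, and FZR1 (0.87 ± 0.08), CDKN2D (0.48 ± 0.10) and CCND1 (0.23 ± 0.05) rose. CDKN2D fell in BE(2)-C (-0.54 ± 0.11), a difference between the lines of -1.02 ± 0.16 (limma adjusted p = 0.000379), and so did CCNF (-0.62 ± 0.06).

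Partners of E2F6 in the PRC1.6 complex had 3 lower and 2 higher of 12 in Hep-G2 (median -0.06, with 0.03 upon median centring and -0.22 with equal sums), against 23.0% and 21.9% of all tested genes. In BE(2)-C, 1 was lower and 1 higher (median 0.13), against 14.8% and 13.3%. These counts depended on the scaling. Median centring gave 4 higher for each line, with 2 lower for Hep-G2, and equal sums gave 5 lower with 1 higher for Hep-G2 and 2 higher for BE(2)-C. Without siC replicate 1 or 3 or siI1 replicate 2, the Hep-G2 counts were 1 lower and 1 higher, and without siI1 replicate 3 there was 1 lower. MAX (-0.56 ± 0.07) and MGA (-0.56 ± 0.14), which form a DNA-binding pair of the complex, fell in Hep-G2. RNF2, one of 2 ubiquitin ligases listed, fell in Hep-G2 (-0.34 ± 0.09, limma adjusted p = 0.0233) and rose in BE(2)-C (0.35 ± 0.08, limma adjusted p = 0.0156), a difference of 0.68 ± 0.12 (limma adjusted p = 0.000977). RING1, the other one, had 0.51 ± 0.18 in Hep-G2 (limma adjusted p = 0.0569) and -0.32 ± 0.10 in BE(2)-C (limma adjusted p = 0.0589), and its difference of -0.84 ± 0.22 (limma adjusted p = 0.0118) was in the other direction. WDR5 (0.44 ± 0.08) and PCGF6 (0.38 ± 0.11) rose in Hep-G2. In BE(2)-C the gene called higher, RNF2, was not called without siI1 replicate 1 or 2, where the count was 0, while the count was 3 without siC replicate 2 and 4 with voom weights. The gene called lower there was L3MBTL2 (-0.21 ± 0.06, limma adjusted p = 0.0433), and the count went to 0 with median centring, equal sums, no filter, no trend or the replicate block, and without siC replicate 1 or 3 or siI1 replicate 1, 2 or 3. Of 8 germline genes known to be repressed by E2F6, 0 passed the filter in Hep-G2 and 1 did in BE(2)-C (SYCP3, log2 fold change -0.30 ± 0.44, limma adjusted p = 0.659). The highest FPKM of any of them in any library was 0.230, and SYCP3 had 2 to 11 reads per library in BE(2)-C.

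The markers of the lines moved as well. In Hep-G2, 5 of 8 hepatic markers were higher and 2 lower (median 0.28), against 21.9% and 23.0% of all tested genes, and their sum of 7563 to 7633 FPKM in siC stood against 12100.0 to 13790.0 in siI1. ALB (0.95 ± 0.16), APOA1 (1.70 ± 0.17) and SERPINA1 (0.64 ± 0.11) rose, and TTR (-0.77 ± 0.13) and AFP (-0.59 ± 0.10) fell. Of 8 neuroblastoma markers, 4 were lower and 2 higher in BE(2)-C (median -0.18), against 14.8% and 13.3%, with sums of 1799 to 2003 FPKM in siC and 1803 to 1925 in siI1. HAND2 (-0.73 ± 0.04) and PHOX2A (-0.40 ± 0.06) fell, and TH (0.61 ± 0.09) and CHGA (0.39 ± 0.07) rose. The part of these changes in the levels of the E2F and DP genes was not tested.

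As a description of pattern, 4 members were compared with 8694 protein-coding genes over the 12 libraries after subtracting the mean of each line, so that the siRNA contrast is shared by all pairs. By Pearson r, E2F1 was most like PSMD3 (0.996), VPS4A (0.993) and RHOF (0.993). E2F2 was most like BFAR (0.977), FAM69A (0.974) and C12orf49 (0.973), and E2F3 most like FKBP14 (0.988), AHCTF1 (0.988) and PKN2 (0.987). TFDP1 was most like HOOK3 (0.965), KPNA5 (0.945) and WSB1 (0.942).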

How the data were processed

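Poly-A RNA of Hep-G2 and BE(2)-C was sequenced as strand-specific libraries, 3 per siRNA and line, and columns were assigned to samples by name. Per the methods and the submitters' processing notes, reads were clipped with cutadapt 1.14, aligned to hg38 with HISAT2 2.1.0, handled with SAMtools 1.5, summarized on Ensembl genes with featureCounts 1.5.3 (strand setting not given in the sources used here) and tested with edgeR 3.30.3. The authors deposited a table per line with FPKM per library and, as another column, gene length in bases. The header names no unit, and FPKM was taken from the values. FPKM times gene length was divided by the smallest nonzero such product of each library, which was taken to be a single read. This gave whole numbers for 100% of nonzero values within 0.001, and the read counts given here rest on it. The tables also hold the authors' log2 fold changes, p-values and FDR of siI1 against siC, which were not used.

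Genes reaching 0.1 FPKM in 3 or more of 6 libraries were compared on log2(FPKM + 0.1), a scale on which changes of low genes come out too small, with limma 3.58.1 in R 4.3.3 (two-sided, mean-variance trend, Benjamini-Hochberg over all tested genes, threshold 0.05). Tables were fitted apart, and the difference between lines was an interaction over genes passing in both. A count test was foreseen for raw counts and was not used on FPKM. The fits were also run on simulated reads. These had the same spread beyond counting noise for every gene, no outlying library and far fewer changed genes than were called here. The outcome is not given here, and this run does not vouch for the calls. The members and the 8 gene lists (G1/S and G2/M targets, pocket proteins and MuvB with DYRK1A, cyclin-CDK control of RB1, PRC1.6, germline genes, hepatic and neuroblastoma markers) were chosen with earlier results of these data known. Named genes are the members, IGF2BP1, pseudogenes and TFDP3, per list, line and direction up to 3 called genes with the smallest p, any gene of a list of 12 or fewer, and the 3 genes most correlated with each of 4 members. One gene that this rule names is not reported here. RBIS was chosen after its overlap was seen. Promoters are from RefSeq (8 members matched). Alternatives covered the pseudocount (0.01 and 1), the filter (none, 1 FPKM), the trend, the scaling (median centring, equal sums), a replicate block, voom weights on reads, motif length and each library left out. Python 3.11.15, NumPy 2.4.6, pandas 2.3.3 and Matplotlib 3.10.9 were used.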

Additional observations from a re-analysis of the deposited data

Results flagged for a closer look

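The effect of the knockdown differed between the cell lines, by the interaction test of limma, for 3 of 10 members, against 40.2% of all genes tested in both, so that the share among the members was not above that of all genes. The log2 fold change in BE(2)-C minus that in Hep-G2 was 0.67 for E2F3, 0.40 for E2F5 and 0.45 for E2F6. The siRNA dose also differed between the lines, and its part was not tested.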

How the results depend on the processing

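Of 270 values of single members under another setting, 257 kept their direction and their side of the threshold, 1 lost its call, 6 gained one and 6 changed sign; with single libraries left out, the numbers were 213 of 240, 4, 3 and 20. The count of members higher in Hep-G2 went from 1 to 2 with median centring, as TFDP1 passed, and the cause was not tested. The counts of members ran from 2 to 4 for lower in BE(2)-C and from 3 to 4 for the difference between the lines, with the other counts at 5, 1 and 3 otherwise. With equal sums of FPKM the difference between the lines turned to 0.17 for E2F1, 0.042 for E2F7 and 0.15 for E2F6P1, and the Hep-G2 value to -0.020 for E2F5 and -0.086 for E2F8. The difference turned to -0.21 for E2F2 with a pseudocount of 1 and to -0.032 for TFDP2 with median centring, and the cause was not tested. None of these values had passed the test. Over single libraries left out, the difference ranged from -0.12 to 0.048 for E2F1, -0.012 to 0.31 for E2F2, -0.25 to 0.0071 for E2F7, -0.070 to 0.21 for E2F8, -0.050 to 0.067 for TFDP2 and -0.36 to 0.20 for E2F6P1. Likewise, BE(2)-C values ranged from -0.088 to 0.0029 for E2F3, -0.012 to 0.13 for E2F6 and -0.0014 to 0.25 for E2F8, and the Hep-G2 value of E2F8 from -0.083 to 0.15. Same-numbered siC and siI1 libraries had correlations of their deviations of 0.063, 0.035 and -0.006 in Hep-G2 and of 0.023, -0.01 and -0.003 in BE(2)-C. Pairs of unlike number ran from -0.09 to 0.062 in Hep-G2 and from -0.02 to 0.022 in BE(2)-C. With 3 libraries per group, these values cannot settle whether the numbers pair the libraries. When replicate numbers entered as a block, the Hep-G2 fit called 8820 genes, the BE(2)-C fit 4672 and the difference 6295, against 8713, 5252 and 6180, and the members lower in BE(2)-C were 4 with E2F7 (-0.45, limma adjusted p = 0.0250) and those that differed 4 with E2F4 (0.26, limma adjusted p = 0.0372). Of the list counts, the larger ones of lower genes ran from 16 to 26 and 21 to 26 (G1/S, Hep-G2 and BE(2)-C), 14 to 23 and 15 to 24 (G2/M) and 6 to 8 (pocket proteins and MuvB, Hep-G2), while small ones moved by more than 1.5 times. G1/S higher was 4 for Hep-G2 (1 to 6), 1 for BE(2)-C (0 to 2), G2/M higher 1 in Hep-G2 (1 to 2), and pocket proteins and MuvB 1 lower and 1 higher in BE(2)-C (0 to 1 each). Cyclin-CDK genes were 8 lower (5 to 9) and 3 higher (2 to 5) for Hep-G2, with 6 lower for BE(2)-C (3 to 7), and PRC1.6 genes 3 lower (1 to 5) and 2 higher (1 to 4) for Hep-G2, with 1 lower (0 to 2) and 1 higher (0 to 4) for BE(2)-C. Promoter matches rose from 4 to 8 of 11 windows with the shorter strings, of which the longer forms contain one each. The lowest libraries of E2F8, E2F7 and E2F2 in Hep-G2 held 60, 81 and 41 reads, and that of E2F8 in BE(2)-C held 78.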
